A study of Mus musculus with 4 samples.

Results

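The Six-family, Eya and Dach genes were followed in cardiac progenitor cells with and without Isl1, a transcription factor with LIM domains that marks second heart field progenitors. The 9 genes Six2, Six4, Six5, Eya1, Eya2, Eya3, Eya4, Dach1 and Dach2 were chosen by name from the 20701 gene symbols of the transcript table, and each was read from its transcript entry of highest total count. Other Six-family genes were not used here. The cells came from mouse E14 embryonic stem cells that carry a Tg(Nkx2-5-EmGFP) transgene in every group, so that cells in which Nkx2-5 (a cardiac homeodomain factor) is active are green. They were differentiated, and green cells were sorted on day 5. The control group was cells of this reporter line, and the Isl1_KO group was Isl1-/- cells of it, edited with CRISPR/Cas9. Each group had 2 RNA-Seq libraries, from 2 clones per group by the study's methods. The series' general description names Isl1 hairpin constructs and a knockdown, whereas titles, protocols and methods give a knockout. Differences between clones and the effect of the deletion cannot be told apart beyond these 2 clones of each kind.

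Six-family proteins are homeodomain transcription factors that bind DNA. Eya proteins are coactivators and phosphatases that Six-family proteins bring to their target genes, and Dach proteins are nuclear cofactors, related to Ski, that mostly repress. Together with Pax factors they form a regulatory network first described in the eye of the fly, and in the mouse it serves progenitors of the ear, kidney, skeletal muscle and pharyngeal arches, including mesoderm that adds cells to the heart. The comparison asks which of these genes differ in level when Isl1 is missing.

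Over 1 entry per gene the libraries held between 8821517 and 13186109 counts, with the Isl1_KO libraries the deeper ones. Isl1 counted 309 and 326 reads in control against 17 and 24 in Isl1_KO, which followed the labels (log2 fold change -4.39, SE 0.212, edgeR adjusted p 0.00277). Set against counting error, the chi-square divided by its degrees of freedom was 1.14 between the control libraries and 18.7 between the Isl1_KO libraries. Of 10 cardiac progenitor markers all were tested, with 5 called lower (Isl1, Nkx2-5, Mef2c, Tbx5 and Hand2). Of all tested genes 1.94% were called lower. Nkx2-5, whose reporter was used for the sort, was at 21.1 and 19.8 CPM in control and at 4.77 and 4.34 CPM in Isl1_KO. Hand1, the highest of these markers in CPM (counts-per-million), was at 839 and 848 CPM in control and at 1122 and 871 CPM in Isl1_KO. Pdgfra, a growth factor receptor, came next in CPM, a scale that favours long transcripts (302 and 289 CPM against 205 and 149 CPM). The 12 cardiomyocyte markers summed to 2108 and 2190 CPM in control and to 144 and 84.8 CPM in Isl1_KO, and all 11 tested ones fell (edgeR adjusted p under 0.05), Ttn and Actc1 having the highest mean log2 CPM, while Nppa, at 3 to 6 counts, was not tested. Of these calls, none of the 5 and 5 of the 11 held without control replicate 1, and 1 of the 5 and 7 of the 11 without control replicate 2. Whether this loss of cardiomyocyte transcripts takes part in the differences below was not tested. In bulk RNA, fewer cells that express a gene and less RNA per cell cannot be told apart.

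None of the 9 genes passed the threshold over all genes. Of the 9, 8 had enough counts to be tested, and in edgeR's quasi-likelihood test the count with an adjusted p under 0.05 was 0, where 2.45% of the 12715 tested genes were called, 1.94% lower and 0.503% higher. At an unadjusted p under 0.05 there were 6, with Dach1, Eya1, Eya2, Eya4 and Six5 lower and Six2 higher in Isl1_KO, against 12.2% of tested genes lower and 11% higher. The study's own criteria (a DESeq2 fold change over 1.5 with an unadjusted p under 0.05) were met by 5 of the 9, namely Dach1, Eya1, Eya4 and Six5 as lower and Six2 as higher, against 5.89% of 16855 genes in either direction, 4.57% lower and 1.32% higher. With the adjusted p of DESeq2 only Dach1 passed, where 4.67% of the genes with such a value did. In all 8 tested genes the groups did not overlap, 5 with both Isl1_KO libraries below both control libraries and 3 above, but 29% and 29.1% of all tested genes did the same. The median log2 fold change of the 8 was -0.75, beside -0.0027 for all tested genes. These counts depended on single libraries. At an unadjusted p under 0.05 there were 4 without control replicate 1 and 2 without control replicate 2. Without Isl1_KO replicate 1 or without Isl1_KO replicate 2 the spread came from the control pair alone. Calls then became far more frequent among all tested genes, and no call of a member is read from those fits.

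**Figure D1:**
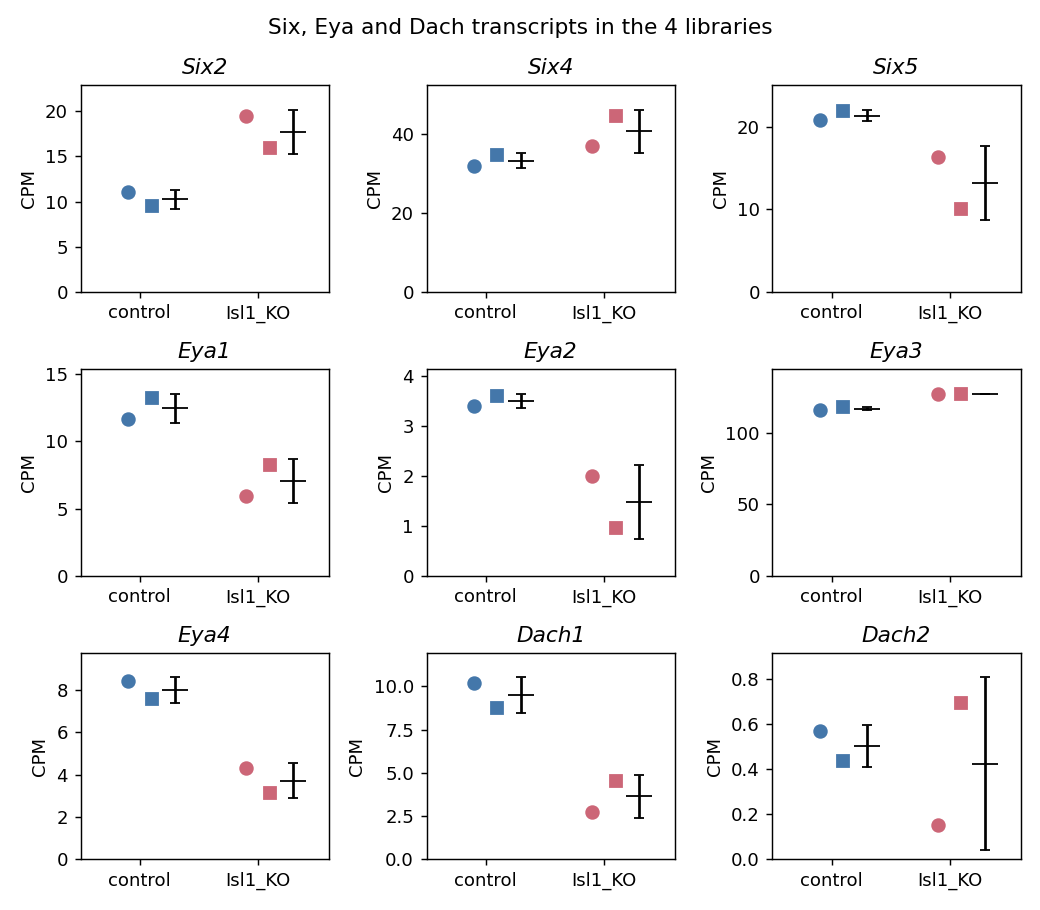
Level of each of the 9 genes in CPM (vertical axes, from 0, scaled per gene) in the control (blue) and Isl1_KO (red) libraries, with a circle for replicate 1, a square for replicate 2 and, in black, the mean with the SD of 2 libraries. The groups do not overlap for 8 genes, Six2, Six4 and Eya3 being higher and 5 genes lower in Isl1_KO, and they overlap for Dach2.

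Levels of different genes were compared per length, as the deposited RPKM of the entry. In control the order was Eya3 (12.6 and 12.8 RPKM), Six5 (4.13 and 4.33), Six4 (3.23 and 3.49), Six2 (2.95 and 2.55) and Eya1 (1.52 and 1.73). Dach1 (1.06 and 0.91), Eya4 (0.90 and 0.81) and Eya2 (0.79 and 0.83) came next. Eya2 and Eya4 overlapped in control, and the lower Dach1 value lay next to the higher Eya4 value. Dach2, at 0.05 and 0.04 RPKM, was at the end. In Isl1_KO the order of the Six-family genes was another one, with Six2 (5.20 and 4.44 RPKM) overlapping Six4 (3.71 and 4.67) and both above Six5 (3.23 and 2.07). Eya3 stayed first at 13.8 and 14.4 RPKM, and Dach1, Eya2 and Eya4 overlapped at 0.23 to 0.49 RPKM. By level, Eya3 exceeded 69.3% to 71.9% of the tested genes in the 4 libraries, while Eya2, Eya4 and Dach1 exceeded 5.10% to 16.6%.

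Promoter sequences of 7 of the 9 genes, 10 windows in all, were found in RefSeq on GRCm38.p6, from 250 bases before the start to 50 after it, and none was found for Eya1 and Eya2. In them 4 short motifs were searched on both strands. The motifs were TAATGG (the core of sites bound by Isl1), TCAGGTT (the MEF3 site of Six-family factors), AGATAA (bound by factors such as Gata4) and the MEF2 site with 4 free bases in its middle. TAATGG was found in windows of Six4 and Six5 and in 7.73% of all 32851 windows, TCAGGTT in Six4 and in 4.07%, AGATAA in Six2 and in 11.2%, and the MEF2 site in no member and in 3.69%. The windows below are those of the 3 Six-family genes with these matches (the other window of Six4, at chr12:73113376-73113675, held none), and of Dach1, the gene with the lowest log2 fold change, which holds none. Capitals mark the matches on either strand, and each sequence is written 5′ to 3′ on the strand of the gene. They are chr17:85688205-85688504 (minus strand) for Six2, chr12:73113196-73113495 (minus strand) for Six4, chr7:19094294-19094593 (plus strand) for Six5 and chr14:98169716-98170015 (minus strand) for Dach1.
Six2: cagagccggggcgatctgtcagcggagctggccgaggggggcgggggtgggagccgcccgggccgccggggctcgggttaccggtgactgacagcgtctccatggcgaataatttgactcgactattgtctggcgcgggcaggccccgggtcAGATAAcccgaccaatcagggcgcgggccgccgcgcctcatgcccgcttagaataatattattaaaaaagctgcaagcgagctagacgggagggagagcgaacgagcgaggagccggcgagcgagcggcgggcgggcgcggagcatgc
Six4: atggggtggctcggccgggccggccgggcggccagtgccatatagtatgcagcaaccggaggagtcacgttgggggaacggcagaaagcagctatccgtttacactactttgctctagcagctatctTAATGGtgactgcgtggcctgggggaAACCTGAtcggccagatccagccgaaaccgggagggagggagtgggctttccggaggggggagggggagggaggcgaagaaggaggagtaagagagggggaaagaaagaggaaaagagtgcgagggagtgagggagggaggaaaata
Six5: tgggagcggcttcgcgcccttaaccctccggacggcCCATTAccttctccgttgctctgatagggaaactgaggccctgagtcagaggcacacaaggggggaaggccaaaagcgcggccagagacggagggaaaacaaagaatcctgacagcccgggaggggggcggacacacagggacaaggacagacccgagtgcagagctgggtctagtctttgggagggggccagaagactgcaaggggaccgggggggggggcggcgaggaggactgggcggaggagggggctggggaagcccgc
Dach1: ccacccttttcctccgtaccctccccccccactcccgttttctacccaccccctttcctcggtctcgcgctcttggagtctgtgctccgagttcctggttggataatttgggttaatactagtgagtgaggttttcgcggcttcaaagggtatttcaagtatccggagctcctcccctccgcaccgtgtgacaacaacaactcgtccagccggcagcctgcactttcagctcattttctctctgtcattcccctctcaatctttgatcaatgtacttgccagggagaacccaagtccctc

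In Six2 the capitals are the GATA match, in Six5 the TAATGG match read on the other strand, and in Six4 first TAATGG and then the MEF3 match on the other strand. The Six2 and Six4 windows belong to the genes with higher values in Isl1_KO and the Six5 window to one with lower values. A match describes these letters only.

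Among the DNA-binding Six-family factors, Six2 was the one with the highest value relative to control. Six2, known for keeping nephron progenitors in a renewing state and also found in heart field progenitors, lies on chromosome 17 (86083608 to 86087594, minus strand, NCBIM37). It counted 97 and 87 reads in control against 253 and 184 in Isl1_KO, or 11.0 and 9.52 CPM against 19.4 and 16.0 CPM. Both Isl1_KO libraries were above both control libraries. The means were 10.3 ± 1.05 and 17.7 ± 2.46 CPM (SD, n = 2 each), and edgeR gave 0.79 as log2 fold change (SE 0.172, 95% interval 0.35 to 1.22, edgeR adjusted p 0.0876). Of all tested genes, 1.64% had a higher log2 fold change. The log2 fold change of Six2 was 0.64 without Isl1_KO replicate 1 and 0.92 without Isl1_KO replicate 2.

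Six4, a muscle and sensory placode factor, lies on chromosome 12 (74201246 to 74214401, minus strand, NCBIM37). It counted 281 and 315 reads in control against 478 and 512 in Isl1_KO, or 31.9 and 34.5 CPM against 36.7 and 44.4 CPM. The groups did not overlap, but the Isl1_KO libraries lay further apart than control replicate 2 and Isl1_KO replicate 1. The log2 fold change was 0.29 (SE 0.130, 95% interval -0.041 to 0.62, edgeR adjusted p 0.260). It was 0.15 without Isl1_KO replicate 2 and 0.42 without Isl1_KO replicate 1. Six4 stands among genes that were high as well. Of the 40 tested genes nearest to it, 20 on each side, the median log2 fold change was 0.31, and 30 lay above the median of all genes. Six4 differed from the median of these 40 by -0.022. Of the 40, 7 were called higher and 2 lower, beside 0.503% and 1.94% of all tested genes. No neighbour of another tested member was called higher. The part of the neighbourhood in the value of Six4 was not tested.

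Six5, whose gene lies beside Dmpk at the myotonic dystrophy locus, is on chromosome 7 (19679893 to 19683694, plus strand, NCBIM37). Its counts were 184 and 200 in control, and those of Isl1_KO were 213 and 116 at a greater depth. Scaled, these were 20.9 and 21.9 CPM in control and 16.4 and 10.1 CPM in Isl1_KO. Both Isl1_KO libraries were below control, and Isl1_KO replicate 2 was the lower one. The log2 fold change was -0.69 (SE 0.244, 95% interval -1.31 to -0.068, edgeR adjusted p 0.186). It was -1.09 without Isl1_KO replicate 1 and -0.39 without Isl1_KO replicate 2. The ratio of Six2 to Six5 in RPKM was 0.714 and 0.589 in control and 1.61 and 2.14 in Isl1_KO, and with 2 libraries against 2 an exact permutation test cannot give a two-sided p under 0.333.

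The Eya coactivators did not all show the same values. Eya3, the most abundant of the 4 listed, was at 116 and 118 CPM in control and at 127 and 127 CPM in Isl1_KO. Its log2 fold change was 0.12 (SE 0.0609, 95% interval -0.035 to 0.27, edgeR adjusted p 0.306), so that a fold change as large as the 1.5-fold of the study's criteria lay outside the interval. The log2 fold change of Eya3 was 0.12 without Isl1_KO replicate 1 and 0.12 without Isl1_KO replicate 2. Eya3 lies on chromosome 4 (132194902 to 132280680, plus strand), Eya1 on chromosome 1 (14159035 to 14300281, minus strand), Eya2 on chromosome 2 (165480798 to 165597227, plus strand) and Eya4 on chromosome 10 (22823974 to 23069701, minus strand, all NCBIM37).

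Eya1, the gene of branchio-oto-renal syndrome, counted 103 and 121 reads in control against 77 and 95 in Isl1_KO, or 11.7 and 13.2 CPM against 5.92 and 8.24 CPM. The groups did not overlap. Its log2 fold change was -0.82 (SE 0.216, 95% interval -1.37 to -0.27, edgeR adjusted p 0.118). Eya4, mutated in forms of hearing loss and dilated cardiomyopathy, counted 74 and 69 reads in control against 56 and 36 in Isl1_KO, or 8.40 and 7.55 CPM against 4.30 and 3.12 CPM. Every Isl1_KO value was below the control values. The log2 fold change was -1.09 (SE 0.235, 95% interval -1.69 to -0.50, edgeR adjusted p 0.0868), and 4.40% of tested genes were lower still. Eya2, a partner of Six-family factors in muscle precursors, counted 30 and 33 reads in control against 26 and 11 in Isl1_KO, or 3.41 and 3.61 CPM against 2.00 and 0.954 CPM. It had the lowest counts of the 4 and the widest interval, its log2 fold change being -1.22 (SE 0.391, 95% interval -2.22 to -0.23, edgeR adjusted p 0.160). Without Isl1_KO replicate 1 the log2 fold changes of Eya1, Eya2 and Eya4 were -0.60, -1.87 and -1.35, and without Isl1_KO replicate 2 they were -1.07, -0.81 and -0.89. With 1 Isl1_KO library no call is read from these values. The highest adjusted p over all alternatives was 0.712 for Eya1, 0.732 for Eya2 and 0.660 for Eya4.

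As a share of the summed RPKM of the 4 Eya genes, Eya3 took 79.7% and 79.2% in control and 89.1% and 89.4% in Isl1_KO. The 3 others together held 20.3% and 20.8% in control against 10.9% and 10.6% in Isl1_KO. Their summed level was 3.21 and 3.37 RPKM in control and 1.69 and 1.70 RPKM in Isl1_KO. The 2 Isl1_KO libraries were close in this sum although they differed in each gene, with Eya1 higher in replicate 2 and both Eya2 and Eya4 higher in replicate 1. The total of the 4 genes was 15.8 and 16.2 RPKM in control and 15.4 and 16.1 RPKM in Isl1_KO, and so overlapped in RPKM. The deposited RPKM and the CPM used here scale the libraries differently. Eya3 in Isl1_KO was at 127 and 127 CPM but at 13.8 and 14.4 RPKM. Small differences between libraries in these sums therefore depend on the scaling, and the sums were not computed with that of CPM.

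**Figure D2:**
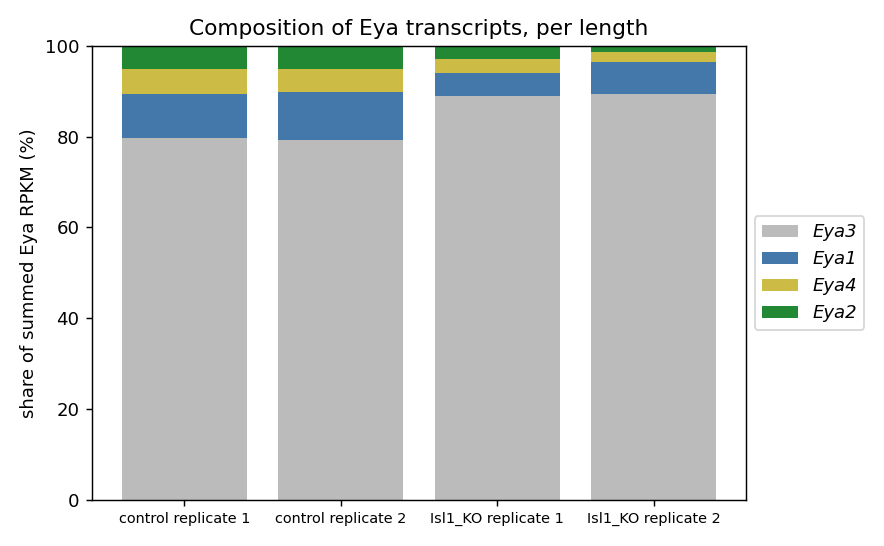
Share of each Eya gene in the summed RPKM of Eya1, Eya2, Eya3 and Eya4 (vertical axis, in percent) for each of the 4 libraries (bars). Eya3 fills 79.2% to 79.7% of the control bars and 89.1% to 89.4% of the Isl1_KO bars, and the other 3 genes share the rest.

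Of the Dach cofactors, Dach1, which is found in many progenitors and in growing coronary vessels, had the lowest log2 fold change of the 8 tested genes. It lies on chromosome 14 (98186066 to 98568984, minus strand, NCBIM37). It counted 90 and 80 reads in control against 36 and 52 in Isl1_KO, or 10.2 and 8.75 CPM against 2.77 and 4.51 CPM. Both control libraries were above both Isl1_KO libraries. The means were 9.49 ± 1.03 and 3.64 ± 1.23 CPM (SD, n = 2 each), and edgeR gave -1.39 as log2 fold change (SE 0.282, 95% interval -2.10 to -0.67, edgeR adjusted p 0.0796), and 3.08% of tested genes had a lower one. In DESeq2 the log2 fold change was -1.38 (SE 0.425) and the adjusted p 0.0297. In edgeR the log2 fold change was -1.07 without Isl1_KO replicate 1 and -1.77 without Isl1_KO replicate 2. Dach2, on the X chromosome (110411119 to 110949995, plus strand, NCBIM37), counted 5 and 4 reads in control against 2 and 8 in Isl1_KO. The floor of 3 counts per library was 0.231 to 0.341 CPM, and no difference was detectable at this depth.

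**Figure D3:**
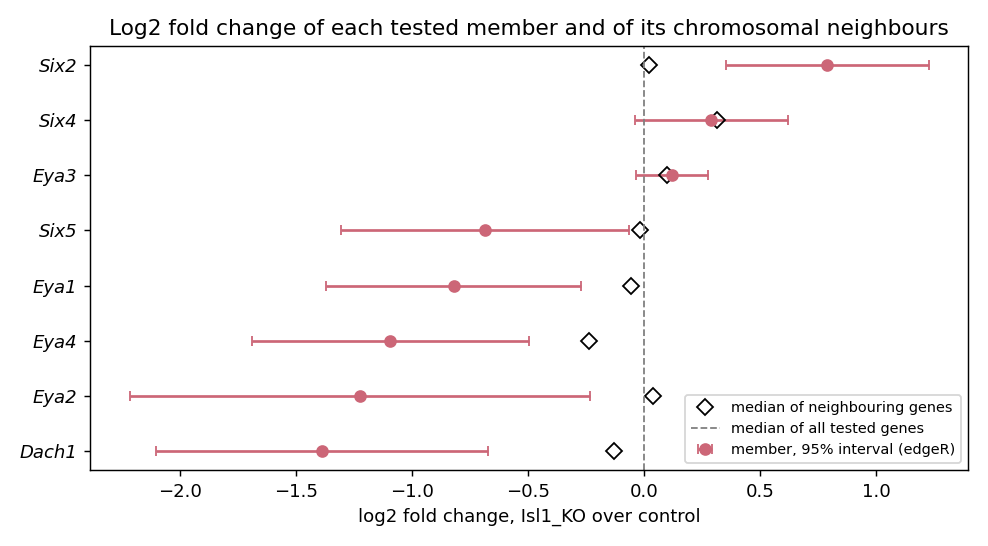
Log2 fold change of Isl1_KO over control (horizontal axis) for the 8 tested genes, as red points with the 95% interval from edgeR, beside the median of the nearest tested genes on the chromosome (open diamonds, up to 20 on each side) and the median of all tested genes (dashed line). The intervals of Six4 and Eya3 include 0, and the diamond of Six4, at 0.31, lies on its point, whereas those of Six2 and Dach1 are at 0.020 and -0.13.

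For the members other than Six4 the median over the neighbours was closer to that of all genes, from -0.24 for Eya4 to 0.097 for Eya3. Even so, of 40 neighbours each, 12 for Eya4, 13 for Dach1 and 28 for Eya3 lay above the median of all genes. The others were nearer to an even split. The differences from the neighbours were 0.77 for Six2, 0.023 for Eya3, -0.67 for Six5 and -0.76 for Eya1. They were -0.86 for Eya4, -1.26 for Eya2 and -1.26 for Dach1. Several transcript entries share reads in 6 of the 9 genes, from 2 for Dach1 and Eya4 to 5 for Dach2. For Eya1, Eya2, Eya4 and Dach1 the entries differed by at most 6 summed counts, and for Eya3 the entry with the lowest count had 4836 of 5209. No exon of a member overlapped an exon of another gene in the annotation.

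The partners of the network were read from lists of Pax factors, cofactors and corepressors, described targets, and factors of pharyngeal mesoderm and the second heart field. Pax1 and Pax9, paired-box factors of the pharyngeal pouches and the sclerotome, fell. Pax1 counted 65 and 66 reads in control against 4 and 0 in Isl1_KO, for which edgeR gave -5.39 on the log2 scale (SE 0.606, adjusted p 0.0235). With a library at 0, that fitted value depends on the prior count. Pax9 counted 43 and 44 reads in control against 6 and 3 in Isl1_KO, for which edgeR gave -3.69 (SE 0.353, adjusted p 0.0152). Of the 7 Pax genes 3 were tested, 2 were called lower and the third, Pax6, was at -1.18 (edgeR adjusted p 0.0986). The other 4 were at 7 counts or fewer in every library. The median of the 3 tested genes was -3.69, beside -0.0027 for all tested genes, and 1.94% of all tested genes were called lower. Pax1 and Pax9 reached the count filter through their control libraries alone. They could thus enter this median and these calls only as lower genes.

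Among 14 cofactors and corepressors, all tested, 1 fell (1.94% of all tested genes) and 13 did not pass, 6 had an unadjusted p under 0.05 (23.3% of all tested genes), and the median was -0.045. The called gene was Tle4, a Groucho corepressor, with 66.0 and 63.4 CPM in control and 41.5 and 44.0 CPM in Isl1_KO (log2 fold change -0.60, SE 0.0842, edgeR adjusted p 0.0396). Those with the highest mean log2 CPM were Tle3, another Groucho corepressor, at 0.24 (SE 0.0634), and Ncor1, a nuclear receptor corepressor, at -0.046 (SE 0.0772), with edgeR adjusted p of 0.121 and 0.763. Ski and Skil, the relatives of Dach, were at -0.040 and -0.15. Sobp, a protein named for binding to Six-family proteins, counted 44 and 52 reads in control against 42 and 23 in Isl1_KO, which is -1.02 as a log2 fold change (SE 0.301, edgeR adjusted p 0.141).

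Of 15 described targets of Six-family and Eya proteins 9 were tested and none passed in edgeR's test, although 5 had an unadjusted p under 0.05 (23.3% of all tested genes) and 1, Myc, met the study's criteria in DESeq2 as higher (1.32% of all genes). Their median was 0.13. Aldoa, a glycolytic enzyme, was at 0.27 (SE 0.0733) and Ccnd1, a cyclin of the G1 phase, at 0.26 (SE 0.111), with edgeR adjusted p of 0.125 and 0.238. Gdnf, a kidney growth factor, counted 11 and 10 reads in control against 4 and 6 in Isl1_KO (log2 fold change -1.49, edgeR adjusted p 0.151). The myogenic factors Myod1 and Myf5 had 0 counts in every library, which allows up to 0.231 to 0.341 CPM, and Myog, Myf6 and Ckm had at most 2 counts.

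Of 11 factors of pharyngeal mesoderm and the second heart field 8 were tested, 1 fell (1.94% of all tested genes) and 7 did not pass, with a median of -1.79. At an unadjusted p under 0.05 there were 7 (23.3% of all tested genes). Tlx1, Nr2f2, Nr2f1, Tcf21 and Foxc2, which did not pass, were at -2.43, -2.06, -1.86, -1.77 and -1.28. Of these, Nr2f1 had 7 and 10 counts in Isl1_KO and entered the median above through its control counts. The called gene was Foxc1, a forkhead factor, with 148 and 154 counts in control and 72 and 46 in Isl1_KO (log2 fold change -1.81, SE 0.202, edgeR adjusted p 0.0228). The genes of the list with the highest mean log2 CPM were Hes1, a Notch target (0.088, SE 0.0954), and Prdm1, a zinc finger repressor (-0.53, SE 0.183), with edgeR adjusted p of 0.623 and 0.179. Prdm1 was at -0.79 without Isl1_KO replicate 1 and at -0.32 without Isl1_KO replicate 2. By the study's criteria 7 of the 11 were lower (4.57% of all genes), and 1 of these was Tbx1, a T-box factor known to act upstream of this network in the pharynx, with 7 and 7 reads in control and no read in Isl1_KO, too low for edgeR's test. The calls of Pax1, Pax9, Tle4 and Foxc1 were lost without control replicate 1 or without control replicate 2, at log2 fold changes of -5.39 and -5.42 for Pax1, -3.68 and -3.70 for Pax9, -0.57 and -0.63 for Tle4, and -1.82 and -1.81 for Foxc1 (edgeR adjusted p from 0.232 to 0.564). With 1 Isl1_KO library, Pax1 was at -9.17 without Isl1_KO replicate 1 and at -4.52 without Isl1_KO replicate 2. In the same order Pax9 was at -4.15 and -3.36, Foxc1 at -2.07 and -1.60, and Tle4 at -0.56 and -0.64.

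**Figure D4:**
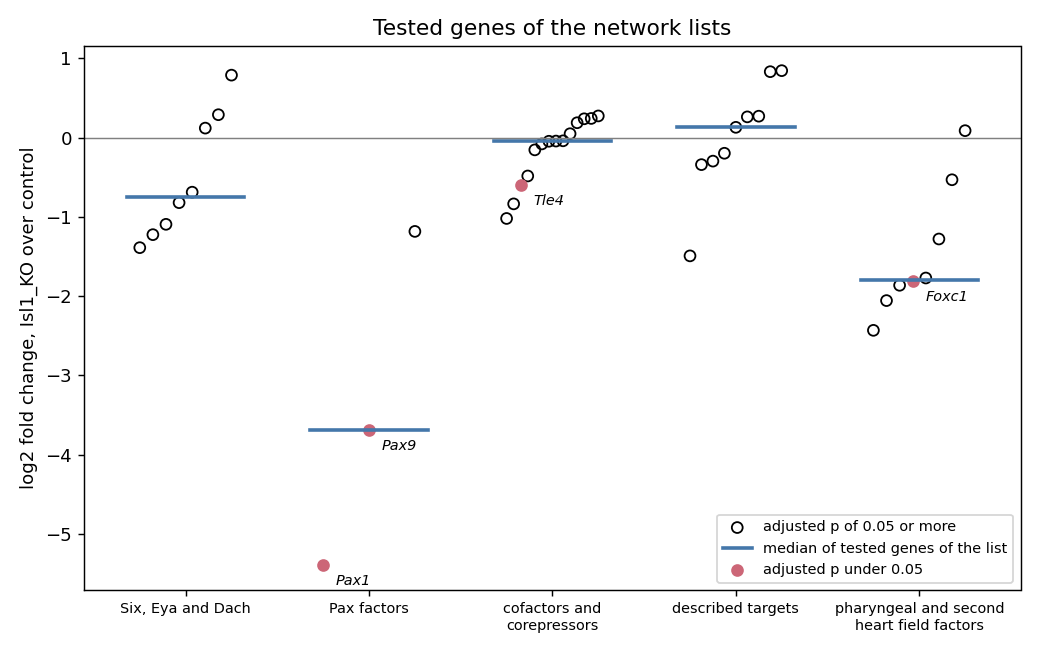
Log2 fold change of Isl1_KO over control (vertical axis) for the tested genes of 5 lists (horizontal axis), filled in red where edgeR's adjusted p was under 0.05, with the median of each list as a blue line. The called genes are Pax1, Pax9, Tle4 and Foxc1, all below 0, and none of the 8 tested Six-family, Eya and Dach genes is filled.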

How the data were processed

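The study sequenced poly(A) RNA of sorted cells as stranded libraries. The authors mapped reads to mm9 with STAR (introns of 20 to 500000 bases), then used HOMER to count exonic reads of each RefSeq transcript on both strands, with no adjustment. In the deposited table a count is a whole number of reads on a transcript. RPKM is the reads-per-kilobase-per-million value, which the authors took from edgeR. Transcript lengths in bases were deposited beside them. Versions were not given in the sources used here. Columns of the authors' DESeq2 fold changes, Wald statistics and p-values were not used, and 0 columns of per-sample values were unmatched.

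The table had 31507 entries for 20701 symbols, and 1 entry per symbol, the one with the highest summed count (the first in the table at a tie), was kept. Counts were tested in edgeR 4.0.16 by quasi-likelihood (TMM, filterByExpr, two-sided, Benjamini-Hochberg over 12715 genes, threshold 0.05) in R 4.3.3. The 95% intervals use the standard error and degrees of freedom of that test. CPM are counts-per-million of effective library size, and log2 CPM used a prior count of 1. DESeq2 1.42.0 was an alternative. Other alternatives were RLE factors, no filter, at least 10 counts in every library, the replicate number as a block, all entries, the longest entry, and leaving out each library. The fit was tested on simulated data. Floors of 3 counts cover counting error only, since reads carried no molecular identifiers. Where labels do not show separate cultures, p-values measure the spread between these libraries.

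The members and lists were chosen with earlier results of these data known. Genes named beside the members are those of 4 network lists past the threshold and the 2 of each list with the highest mean log2 CPM. Ski, Skil, Sobp, Gdnf, Myc, Pax6, Tbx1, the myogenic genes, Nppa, Meox1, Dll3, Tbx6, Tek, Tie1, Cldn5, Cdh5, Emcn and markers at 0 were added after their values were seen. So were Tlx1, Nr2f1, Nr2f2, Tcf21, Foxc2, Dppa4 and Sox17. Positions are from GENCODE vM1 on NCBIM37, the assembly behind mm9, which placed 97.3% of symbols. Promoters are on GRCm38.p6. Protein sequences were not used here, and 1 gene each of the pharyngeal and placode lists is not reported here. Python 3.11.15, pandas 2.3.3 and matplotlib 3.10.9 were used.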

Additional observations from a re-analysis of the deposited data

How the results depend on the processing

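The 8 tested Six-family, Eya and Dach genes kept their direction under all 11 alternatives each. Their count at an adjusted p under 0.05 was 0 with RLE factors, with no filter, with at least 10 counts in every library, with all entries, with the longest entry, with the replicate block and without either control library. It was 1 with DESeq2, and 5 met the study's criteria, which use an unadjusted p. With 1 Isl1_KO library the spread comes from the control pair alone, and the lone library is assumed to vary like control. The 311 genes called in all became 492 with no filter, 604 with DESeq2 and 993 with the study's criteria, and 8 to 6337 when one library was left out. Isl1 ranged from -4.75 to -4.08 when one library was left out and missed the threshold without control replicate 1 (-4.40) and without control replicate 2 (-4.37). A replicate block on the numbers gave 454 genes, 0 members and -4.39 for Isl1. The deviations of libraries with one number had r = -0.00054 over 12599 genes. As the control libraries differed by little more than counting error, this value cannot show whether equal numbers mark pairs. The direction turned when one library was left out for Ncor1 (0.029), Hes1 (-0.023) and Lhx1 (-0.19). Leaving out the other Isl1_KO library gave -0.12, 0.19 and 1.63 for these genes, and the cause was not tested. The RLE factors moved the median of all tested genes by less than 0.1. Eya2 and Dach2 are limited by depth.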

Other observations

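Tissues other than the heart also use these genes, so their markers were read as lists. Of 8 skeletal muscle markers 2 were tested and 0 were called in edgeR's test (0 at an unadjusted p under 0.05), with a summed level of 20.1 and 17.7 CPM in control and 13.3 and 16.4 CPM in Isl1_KO, Myod1 and Myf5 being at 0. Acta1, an actin, and Tnni2, a fast troponin, had the highest mean log2 CPM, at log2 fold changes of -0.30 and -0.49. Of 8 markers of nephrogenic mesoderm 6 were tested and 0 called in edgeR's test. At an unadjusted p under 0.05 there were 2 (23.3% of all tested genes). The 8 had a sum of 148 and 148 CPM in control and 116 and 142 CPM in Isl1_KO. Most of this sum was Sall1, a zinc finger factor, at 126 and 129 CPM in control and 97.9 and 109 CPM in Isl1_KO. Lhx1, a LIM-homeodomain factor, was at 6.47 and 7.22 CPM in control and at 6.0 and 21.3 CPM in Isl1_KO, so that the Isl1_KO libraries differed in it.

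Of 10 paraxial mesoderm markers 5 were tested, and Pax1 and Pax9, which also stand in the list of Pax factors, were the 2 called lower (1.94% of all tested genes). The 3 others had higher values that did not pass, Meox1 at a log2 fold change of 0.62, Dll3 at 0.54 and Tbx6 at 0.20, the last being the median of the 5. Of 8 cranial placode markers 1 was tested, Gata3, a zinc finger factor, at 16.9 and 15.8 CPM in control and 16.6 and 21.9 CPM in Isl1_KO, and 0 were called in edgeR's test (0 at an unadjusted p under 0.05). Foxi2 and Neurog1 were at 0. Of 8 pluripotency markers 6 were tested and 0 called in edgeR's test (1 at an unadjusted p under 0.05), with a sum of 51.9 and 53.7 CPM in control and 17.8 and 48.2 CPM in Isl1_KO. Tdgf1, at 39.6 and 40.4 CPM in control against 3.31 and 20.7 CPM in Isl1_KO, carried most of the control sum. Of the 6 tested markers, 4 had higher and 2 had lower values in Isl1_KO, with a median log2 fold change of 0.48. The marker with an unadjusted p under 0.05 was Dppa4, at a log2 fold change of 1.39. Pou5f1, a POU-domain factor of pluripotent cells, was at 5.45 and 5.91 CPM in control and at 6.0 and 14.7 CPM in Isl1_KO. Of 8 endothelial markers all were tested and 0 called in edgeR's test (5 at an unadjusted p under 0.05), with a sum of 233 and 243 CPM in control and 245 and 216 CPM in Isl1_KO. Of all tested genes, 23.3% had an unadjusted p under 0.05. The median log2 fold change of the 8 markers was -0.81, with Emcn and Cldn5 in the test through their control counts alone. By the study's criteria 5 were lower (4.57% of all genes) and 1 higher (1.32% of all genes). The markers with the highest mean log2 CPM were Flt1, a VEGF receptor (log2 fold change 0.63), and Pecam1, an adhesion molecule (0.26). Sox17 was at 0.10, and its groups overlapped. Tek, Tie1, Cldn5 and Cdh5 were at -1.18, -1.02, -2.35 and -0.60, and Emcn counted 15 and 10 reads in control against none in Isl1_KO.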
